A study of Haplochromis burtoni and Lepidiolamprologus elongatus and Tropheus moorii with 25 samples.

Results

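Granulocytes were chosen by the UMI counts of named genes, in single-cell transcript counts of the intestine. A barcode was a granulocyte when it held at least 1 UMI (a tag that marks 1 captured transcript) in at least 2 of csf3r, mmp9, mpx, cxcr1, cxcr2, alox5 and ncf1. It also had to hold 0 UMIs of csf1r, lck and trpm5. The names mpx, cxcr1 and cxcr2 matched no feature and were not analysed here, so the rule worked as at least 2 of 4 names. It found 420 of 101710 kept barcodes, or 0.413%, where a kept barcode had at least 500 UMIs and 250 detected genes. The study sampled flushed, dispase-dissociated intestine of 25 African cichlid species, with 1 library per species and no replicate. No treatment, genotype, sex, age, diet or site was used to group the samples. Granulocytes were set against the 4771 csf1r-positive barcodes, which carry the receptor of macrophages. A further comparison used 13552 lck-positive barcodes, which carry a T cell kinase and had 0 UMIs of csf1r and trpm5 and fewer than 2 of the rule names.

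Granulocytes are short-lived white blood cells, among them neutrophils and eosinophils, that leave the blood for tissues and kill microbes. They carry granules filled with peroxidases, proteases and other effectors, and they make oxidants with the NADPH oxidase, a membrane complex fed by NADPH. csf3r is the receptor of the cytokine G-CSF, which drives granulocyte production. mmp9 is a matrix-cutting protease stored in granules, ncf1 is a cytosolic subunit of the NADPH oxidase, and alox5 makes the precursor of leukotrienes. Fish intestine holds resident granulocytes of more than one kind, and in zebrafish epx marks eosinophils and mpx marks neutrophils.

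The 25 libraries held 115682 barcodes with 456227483 UMIs, from 7016583 to 32569739 UMIs a library. The median UMIs per kept barcode ranged from 1443 to 5957. A pair of libraries shared at most 17 of the kept barcodes, over 300 pairs. Median UMIs were 2821.5 in granulocytes, 3927 in csf1r-positive barcodes and 2214 in lck-positive barcodes. Mitochondrial genes took 3.04% of UMIs in granulocytes and 4.75% in csf1r-positive barcodes. In their own library, 12.1% of granulocytes were among the top 5% of barcodes by UMIs, against 6.204% of csf1r-positive barcodes. Doublets were not called, and the part of doublets in these results was not tested beyond leaving out the top 5%.

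Barcodes that met the rule were few in nearly every library, and their share was highest in that of Neolamprologus brichardi. The share depends on detecting at least 2 names in a barcode, so it is not a frequency of cells in the gut. The part of detection in the order of the libraries was not tested. There they were 101 of 3915 barcodes, or 2.58%, with an exact Clopper-Pearson 95% interval of 2.11% to 3.13% that covers counting error only. The median share over 25 libraries was 0.294% with an SD of 0.514. Next came Haplochromis burtoni with 0.960%, Callochromis pleurospilus with 0.726% and Tropheus moorii with 0.713%. The lowest share was that of Boulengerochromis microlepis, with 1 granulocyte in 4488 barcodes, or 0.0223% (0.000564% to 0.124%). The Neolamprologus brichardi library alone held 24.0% of all granulocytes.

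The same names were also met in cells of other types at a low rate. Of the barcodes with lck, 12 of 13564, or 0.0885%, held at least 2 of the names (0.0457% to 0.154%). Among barcodes with at least 3 of 11 matched epithelial markers, 31 of 22678, or 0.137%, did so (0.0929% to 0.194%). Their median depth was 5997.5 UMIs, and these 31 are themselves among the 420. In 15 libraries the whole interval of the granulocyte share lay above 0.137%. In 7 libraries the share was at or below 0.137%, so the share alone did not set granulocytes above that rate there. The rate comes from deeper barcodes, and in 5 of these 7 libraries at least 1 granulocyte had a UMI of epx, described further on. After each barcode was thinned to 1000 UMIs and shallower ones were left out, the median share was 0.118% and that of Neolamprologus brichardi was 1.53%. For each 100 csf1r-positive barcodes the median library had 7.14 granulocytes, and Neolamprologus brichardi had 42.8.

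**Figure D1:**
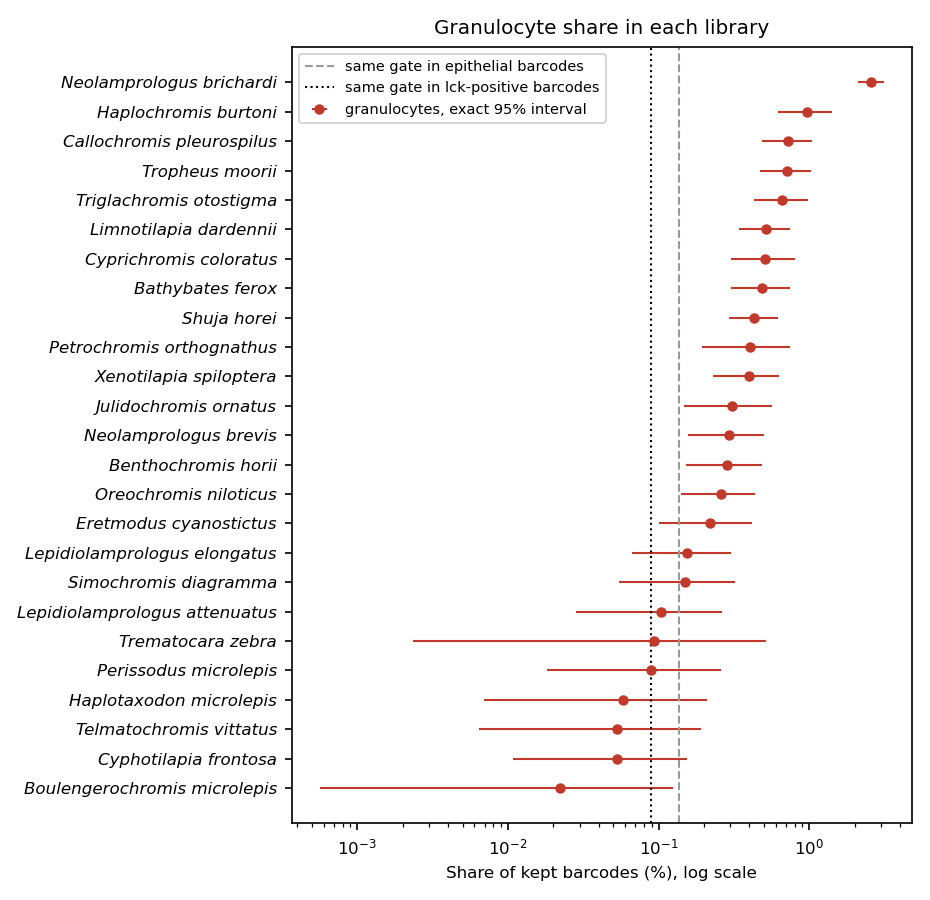
Share of kept barcodes that are granulocytes (x axis, %, log scale) in each of 25 libraries, 1 per species, with exact 95% intervals; vertical lines give the same gate in epithelial and lck-positive barcodes. Neolamprologus brichardi stands at 2.58%, and 7 libraries lie at or below the 0.137% of epithelial barcodes.

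No relation of the share with depth or with the other immune classes was detected across the 25 libraries. Pearson's r of share with log10 median UMIs was 0.0096 (permutation p = 0.964) and Spearman's rho was 0.125 (permutation p = 0.550). With the csf1r-positive share r was 0.243 (permutation p = 0.249) and rho was 0.340 (permutation p = 0.0972). With the lck-positive share r was -0.127 (permutation p = 0.533) and rho was -0.0069 (permutation p = 0.974). After adjustment over 4 relations, the lowest p was 0.964 for r and 0.389 for rho. Without the 2 libraries farthest from the median on the x axis, r was 0.0839, 0.331 and -0.0043 for the same 3 measures. Relations treat the species as independent.

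The values that chose the members are given as a description. Of the 420 granulocytes, 297 held 2 of the names, 94 held 3 and 29 held 4, while 4590 barcodes just outside the rule held 1. The pair mmp9 and ncf1 alone made up 144 members, or 34.3%. Another 292 barcodes met the rule but for csf1r, 12 but for lck and 6 but for trpm5. Over the 15 libraries with at least 10 granulocytes, mmp9 ran from 66.6 to 6051 CPM (UMIs scaled to a common total per class and library) in granulocytes, with a median of 1176 CPM. In csf1r-positive barcodes it ran from 10.7 to 1001 CPM. The median of ncf1 was 367 CPM in granulocytes and 48.7 CPM in csf1r-positive barcodes, that of csf3r was 135 CPM in granulocytes and 42.6 CPM in csf1r-positive barcodes. That of alox5 was 60.7 CPM in granulocytes and 0.944 CPM in csf1r-positive barcodes. ncf1 was thus the most even of the 4 in granulocytes and mmp9 the least.

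Several genes outside the rule were found more often the more names a barcode held, with barcodes pooled over libraries. Neolamprologus brichardi held 46 of the barcodes with at least 3 names and Callochromis pleurospilus 16, so the number of names is mixed with the library. epx, which encodes eosinophil peroxidase in other vertebrates, had a UMI in 1.00% of barcodes with 0 names, 5.47% with 1 name, 46.8% with 2, 88.3% with 3 and 100% with 4. Median depth was 2034, 3022, 2768, 2488.5 and 3571 UMIs in the same order. For pgd, an NADPH-making enzyme of the pentose phosphate pathway, the shares were 8.67%, 19.5%, 61.3%, 85.1% and 100%. The B cell receptor gene cd79a had a UMI in 4.54% of barcodes with 0 names, 31.3% with 1 name and 4.38% with 2. The macrophage gene mafb had no such order, at 6.74%, 6.17%, 11.4%, 6.38% and 3.45% for 0 to 4 names. The epithelial adhesion gene epcam had a UMI in 17.8% of members with 2 names and 3.45% of those with 4.

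**Figure D2:**
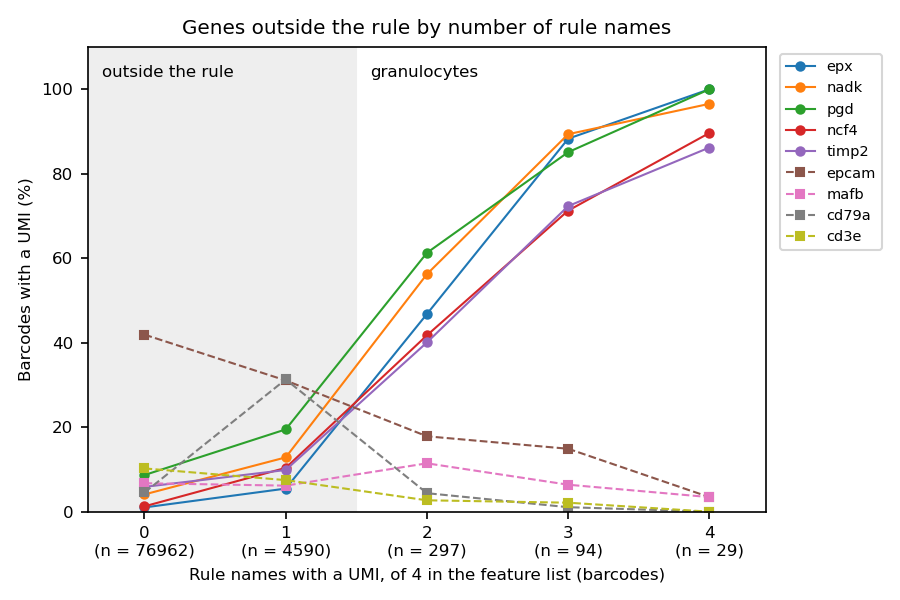
Share of barcodes with a UMI (y axis, %) of 9 genes outside the rule, by how many rule names the barcode held (x axis, 0 to 4, with the number of barcodes); barcodes with csf1r, lck or trpm5 are left out, and the grey area marks barcodes outside the rule. Barcodes are pooled over libraries. epx reaches 46.8% at 2 names and 100% at 4 names.

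The granulocyte label was checked against genes that the rule did not use. A UMI of epx was found in 251 of 420 granulocytes, or 59.8%, against 0.838% of csf1r-positive barcodes and 0.273% of lck-positive barcodes. Of barcodes with at least 3 epithelial markers 2.43% had a UMI of epx, or 1.00% without Xenotilapia spiloptera. After thinning to 1000 UMIs the shares were 53.7% in granulocytes, 0.259% in csf1r-positive barcodes and 0.121% in lck-positive barcodes. For the epithelial barcodes they were 1.36%, or 0.375% without Xenotilapia spiloptera. The proton channel gene hvcn1, which supports the oxidase, had a UMI in 23.3% of granulocytes and 1.15% of csf1r-positive barcodes. Among the mast cell and eosinophil markers, hdc and gata2 were at 0 in granulocytes and kit was found in 1.67%. Markers of other cell types were also met. At least 2 of 16 macrophage and dendritic markers had a UMI in 85.0% of granulocytes and 97.1% of csf1r-positive barcodes. For 12 B and plasma markers this was 56.7% of granulocytes and 65.0% of csf1r-positive barcodes. For 14 T and NK markers it was 25.5% of granulocytes and 40.6% of csf1r-positive barcodes. These lists include genes shared among leukocytes. Examples are ptprc, a gene of all leukocytes, in the T and NK list and the myeloid factor spi1 in the macrophage and dendritic list. The shares are therefore not shares of cells of other types. All 29 members with 4 names had a UMI of epx, as had all 31 with mmp9, alox5 and ncf1 but no csf3r.

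A large minority of members carried no epx. The 169 members without epx, 40.2% of all, were deeper, with a median of 5812 UMIs against 2280 in the 251 with epx. ncf4, a regulatory subunit of the oxidase, had a UMI in 66.1% of members with epx and 30.2% of members without. timp2, a metalloproteinase inhibitor, had a UMI in 72.1% of members with epx and 18.3% of members without. For hvcn1 the share was 37.1% in members with epx and 2.96% in members without. In the other direction, cd74, the invariant chain of antigen presentation, had a UMI in 41.4% of members with epx and 87.0% of those without. irf8, a factor of monocytes and dendritic cells, had a UMI in 6.37% of members with epx and 32.5% of those without. Members with only csf3r and ncf1 numbered 47, of which 23.4% had epx and 48.9% had the macrophage receptor marco. Members with only alox5 and ncf1 numbered 37, of which 67.6% had epx, 45.9% epcam and 21.6% the tuft cell factor pou2f3. These are descriptions of the same barcodes, with no test.

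epx also separated granulocytes from csf1r-positive barcodes library by library. In the 15 libraries with at least 10 barcodes and 10000 UMIs in each class, epx ran from 143 CPM in Bathybates ferox through a median of 1963 CPM to 4096 CPM in Shuja horei in granulocytes. In csf1r-positive barcodes it ran from 0 through a median of 4.05 CPM to 123 CPM. The groups did not overlap, and granulocytes were higher in 15 of 15 libraries. The 10 libraries outside this fit, with 39 granulocytes, gave 1142 CPM (exact Poisson 95% interval 1003 to 1295, counting error only) in granulocytes and 0.723 CPM in csf1r-positive barcodes. A UMI of epx was found in 20 of these 39 granulocytes, or 51.3%, and in 7 of the 10 libraries. The 8 granulocytes of Lepidiolamprologus elongatus had 0 epx UMIs in 58041, with an exact Poisson 95% upper limit of 63.6 CPM. The whole library held 231 epx UMIs, of which 197 were in barcodes with at least 3 epithelial markers. In Bathybates ferox 21 granulocytes held 6 epx UMIs, and the whole library held 9, while mmp9 was at its highest there.

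**Figure D3:**
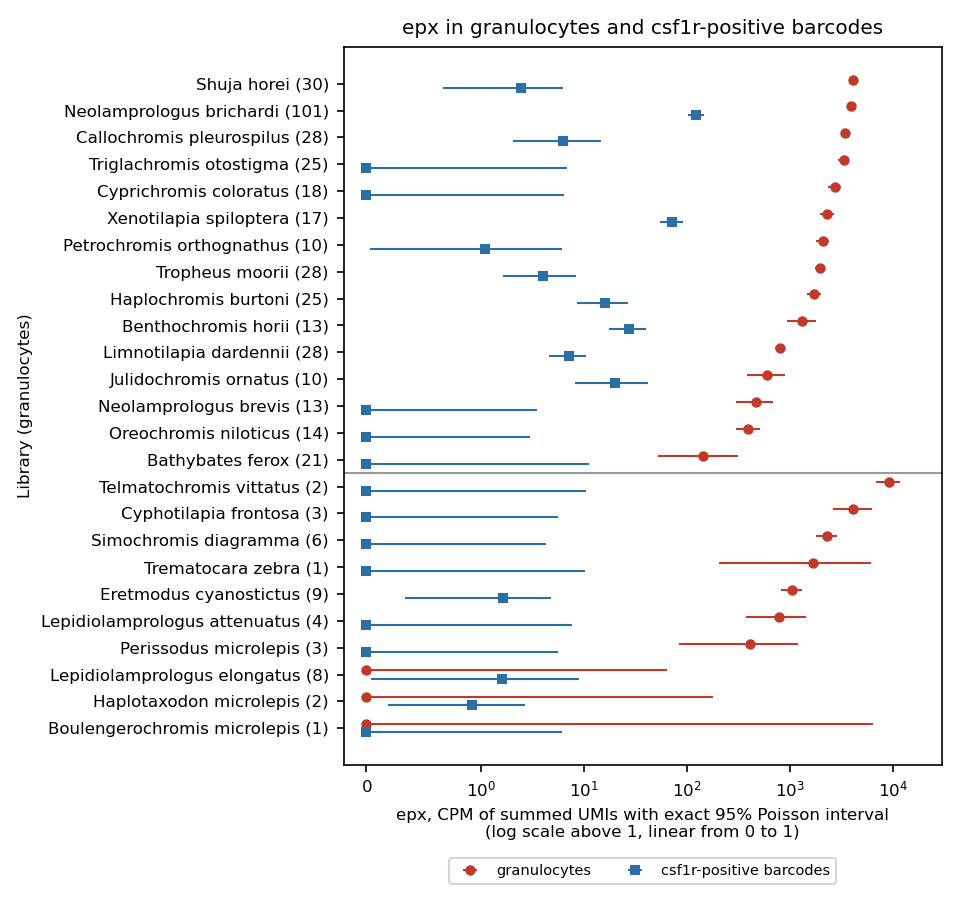
epx level (x axis, CPM of summed UMIs, log scale above 1) in granulocytes (circles) and csf1r-positive barcodes (squares) of each library, with exact 95% Poisson intervals; the number of granulocytes is in brackets, and the grey line sets apart the 10 libraries with fewer than 10. Granulocytes lie between 143 and 4096 CPM above the line, and csf1r-positive barcodes between 0 and 123 CPM.

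Not every epx-rich barcode was a granulocyte by the rule. At 3 or more UMIs of epx there were 749 barcodes, of which 221 were members. With 0 UMIs of csf1r, lck and trpm5, another 154 held 1 of the names and 341 held none. The number with 1 name was 22 in Shuja horei, beside 20 members, and 12 in Neolamprologus brichardi, beside 67 members. Xenotilapia spiloptera held 266 of the 749, and 8 of these were members. The other 258 had a median of 16 and a maximum of 360 epx UMIs, and 230 of them had at least 3 epithelial markers. The barcodes of that library without epx were a mixture, of which 948 of 3765 had at least 3 epithelial markers. epcam was at 6629 CPM in the epx-rich barcodes and 1244 CPM in those without epx. cubn, an endocytic receptor of absorptive cells, was at 582 CPM in the epx-rich barcodes and 21.6 CPM in those without epx. fabp1, a fatty acid carrier, was at 1211 CPM in the epx-rich barcodes and 41.7 CPM in those without epx. Other epithelial genes were lower, with fabp2 at 2889 CPM in the epx-rich barcodes and 5076 CPM in those without epx, and agr2 at 271 CPM in the epx-rich barcodes and 528 CPM in those without epx. The leukocyte proteoglycan gene srgn was at 41.1 CPM in the epx-rich barcodes, against 2809 CPM in the granulocytes of that library. Without this library 483 barcodes had 3 or more epx UMIs, of which 213 were members and 110 held none of the names. Some of the 110 also had at least 3 epithelial markers. These were 23 of 27 in Neolamprologus brichardi and 6 of 8 in Lepidiolamprologus elongatus, but 5 of 21 in Haplochromis burtoni and 2 of 10 in Shuja horei. In Neolamprologus brichardi, 80 of 767 barcodes with at least 3 epithelial markers had a UMI of epx.

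The comparison with csf1r-positive barcodes asked which other genes set granulocytes apart from macrophage-receptor cells of the same gut. UMIs were summed per library and class, and edgeR's quasi-likelihood test was fitted with the library as a block over 15 libraries, which hold 381 granulocytes. A gene was called at a Benjamini-Hochberg adjusted p under 0.05 and a fold of at least 2. Of 7387 genes tested, 1481 were called, or 20.0%. Of these, 386 (5.23%) were higher and 1095 (14.8%) were lower in granulocytes. The median log2 fold change of all genes was -0.24 with TMM scaling and 0.0017 with RLE size factors, which gave 562 higher and 780 lower. DESeq2 gave 572 higher and 785 lower. Non-overlapping groups were found for 44 genes, or 0.596%. The 7 rule genes present were left out of the test. Because csf1r split the classes, the values of genes that accompany it in macrophages are not independent of the rule. Of the called genes, 837 have only a LOC identifier, and the 644 with a name are the base of what follows. Among the LOC features, LOC100699707 (log2 fold change 8.57) and LOC100707504 (7.97) were highest, and LOC109194540 (-6.71) and LOC102080128 (-6.26) were lowest.

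Named genes that were higher in granulocytes include epx, 1 gene of the oxidase list, and genes of the lipid mediator list and the granule and secreted list. epx had the largest log2 fold change of the named genes, 7.52 (SE 0.65, edgeR adjusted p = 1.88e-11). otub2, a deubiquitinase, averaged 302 ± 308 CPM in granulocytes and 3.07 ± 3.36 CPM in csf1r-positive barcodes (SD, n = 15 libraries each). Its log2 fold change was 5.86 (SE 0.40, edgeR adjusted p = 6.46e-14). rarg, a retinoic acid receptor, ran from 48.0 through a median of 167 to 822 CPM in granulocytes and from 0 through 3.66 to 9.70 CPM in csf1r-positive barcodes. Its groups did not overlap (log2 fold change 5.63, SE 0.37, edgeR adjusted p = 1.80e-14). emb, an adhesion glycoprotein (4.84), dok3, an adaptor of immune receptors (4.31), gpr141 (3.73) and rnf24 (3.63) were also called. mien1 was higher in 15 of 15 libraries, with a median of 2025 CPM in granulocytes and 155 CPM in csf1r-positive barcodes. In the 10 libraries outside the fit, all 15 of the named genes with the largest fold changes were higher in the pooled 39 granulocytes than in the pooled csf1r-positive barcodes.

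Among NADPH oxidase genes, 1 of 3 tested was called, and it was higher. The others, vav1 at -0.67 and vav3 at 0.59, were not called. The list median was 0.59, against -0.24 over all genes, of which 5.23% were higher. ncf4 had a median of 204 CPM in granulocytes and 34.8 CPM in csf1r-positive barcodes, and was higher in 14 of 15 libraries (log2 fold change 2.22, SE 0.38, edgeR adjusted p = 1.48e-05). nadk, the kinase that makes NADP, ran from 64.0 through 429 to 1958 CPM in granulocytes and from 13.8 through 50.1 to 111 CPM in csf1r-positive barcodes. It was higher in 15 of 15 libraries (log2 fold change 3.49, SE 0.34, edgeR adjusted p = 2.03e-10). hvcn1 did not pass the filter on low counts. Without that filter its log2 fold change was 4.68 (SE 0.37, edgeR adjusted p = 9.88e-35). That was another fit, over 29227 genes, so its p cannot be ranked with those of ncf4 and nadk. hvcn1 had 235 UMIs in granulocytes and was at 0 CPM in those of Julidochromis ornatus and Neolamprologus brevis.

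Among sugar and glycogen genes, 5 of 13 tested were higher and 0 were lower. Over all genes 5.23% were higher and 14.8% lower. The list median was 0.60. pygl, which releases glucose from glycogen, had a median of 102 CPM in granulocytes and 4.85 CPM in csf1r-positive barcodes (log2 fold change 4.35, SE 0.51, edgeR adjusted p = 1.29e-08). pgd had a median of 603 CPM in granulocytes and 53.3 CPM in csf1r-positive barcodes and was higher in 15 of 15 libraries (2.94, SE 0.31). taldo1, another pentose phosphate enzyme, had a median of 786 CPM in granulocytes and 129 CPM in csf1r-positive barcodes and was higher in 14 of 15 (2.24, SE 0.26). gys1, which builds glycogen, was at low levels, with 74 UMIs in all granulocytes (2.29, SE 0.44). pfkfb3, a driver of glycolysis, had a log2 fold change of 1.15 and lost its call without Callochromis pleurospilus, at 0.90. The central glycolytic genes gapdh, pgk1, pkm and eno1 were not called, with log2 fold changes of 0.14, 0.60, 0.14 and 0.83. In a fit of members with epx alone, added after the data were seen, eno1 was called at 2.06 (edgeR adjusted p = 3.19e-06). There pgk1 was called at 1.39 (edgeR adjusted p = 0.000165), while pkm at 0.71 and gapdh at -0.69 were not. The sign of gapdh depended on the setting, at -1.32 in members with csf3r and mmp9 both.

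Among leukotriene and prostaglandin enzymes, 2 of 4 tested were higher, against 5.23% of all genes. alox5ap, the membrane partner of alox5, ran from 0 through 64.0 to 195 CPM in granulocytes and had a median of 0 CPM in csf1r-positive barcodes. It was higher in 13 of 15 libraries and lower in 1 (log2 fold change 4.94, SE 0.51, edgeR adjusted p = 1.30e-09). ptges, a prostaglandin E synthase, had a log2 fold change of 2.64 (SE 0.67) with 178 UMIs in all granulocytes. Of 5 granule and secreted genes tested, 2 were higher. timp2 had medians of 248 CPM in granulocytes and 15.6 CPM in csf1r-positive barcodes, with no overlap (log2 fold change 3.80, SE 0.26, edgeR adjusted p = 6.30e-14). nccrp1 was higher in 14 of 15 libraries (2.41, SE 0.40). srgn, anxa1 and mmp13 were not called, at 0.81, 1.26 and 1.07. In members with epx srgn was called at 1.53 (edgeR adjusted p = 0.0031), while anxa1 at 1.67 and mmp13 at 1.84 were not. Without Neolamprologus brichardi srgn was called at 1.12 and mmp13 at 1.59. anxa1 was called without Callochromis pleurospilus, Limnotilapia dardennii or Petrochromis orthognathus, at 1.43 to 1.57.

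Macrophage genes were lower. Of 13 macrophage and dendritic markers tested, 9 were lower and 0 were higher, with a list median of -2.68. Over all genes 14.8% were lower. The scavenger receptor gene stab1 ran from 0 to 33.1 CPM in granulocytes and from 54.4 through 155 to 315 CPM in csf1r-positive barcodes, with no overlap (log2 fold change -5.88, SE 0.59, edgeR adjusted p = 4.84e-10). mafb, a macrophage differentiation factor, averaged 42.9 ± 52.0 CPM in granulocytes and 873 ± 531 CPM in csf1r-positive barcodes (SD, n = 15 libraries each), with no overlap (-4.81, SE 0.42, edgeR adjusted p = 2.17e-11). The lysosomal protease genes ctsd and lgmn had log2 fold changes of -3.97 and -3.12, and were lower in 15 of 15 libraries. The iron exporter gene slc40a1 and the receptor genes axl and marco had values of -3.59, -3.53 and -2.68. cd74 was abundant in both classes, with a median of 10261 CPM in granulocytes and 18611 CPM in csf1r-positive barcodes. Its value of -1.26 was -0.97 without Neolamprologus brichardi and with RLE size factors, which is under the fold threshold. grn, a growth factor precursor, was barely past the threshold at -1.06 and lost its call when any of 12 libraries was left out, at -1.04 to -0.93. sema4g had 0 UMIs in granulocytes and 1353 in csf1r-positive barcodes, so it was at least 68.1-fold lower against a floor of 3 UMIs over the group.

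Many of the higher calls, and some of the lower ones, were not reached by the granulocytes without epx. In a fit of members without epx alone, which left 5 libraries and was added after the data were seen, 32 of the 54 named genes that were called and could be tested lost their call or changed sign. Among members with epx, in 8 libraries, 8 of 59 did so. The called genes epx, otub2, alox5ap, pygl, dok3, il34, ackr4 and plxdc2 were not tested in members without epx. The lower calls among the 32 were bhlhe40, bhlhe41, capg, cd2, cd74, gata3, grn, id2, il7r, itga4, runx3, sh2d1a and syk. Of these, gata3, cd2 and itga4 had no smaller a fold in members without epx, at -5.87, -1.61 and -1.88. Over all members they were at -2.59, -1.21 and -1.82. The gata3 values rest on very few granulocyte UMIs, a count given further on, so the size of its fold is uncertain (edgeR adjusted p = 0.11 in members without epx). mien1 had a log2 fold change of 4.10 in members with epx and 0.31 in members without epx (edgeR adjusted p = 0.83). nadk was at 4.74 in members with epx and 0.88 in members without epx (edgeR adjusted p = 0.58). ncf4, the called oxidase gene, was at 3.18 in members with epx and 0.64 in members without epx (edgeR adjusted p = 0.77). The pentose phosphate genes behaved in the same way. pgd was at 4.27 in members with epx and 0.96 in members without epx (edgeR adjusted p = 0.32), and taldo1 at 3.61 in members with epx and 0.40 in members without epx (edgeR adjusted p = 0.61). Both called genes of the granule and secreted list lost their calls in members without epx, timp2 at 1.22 (edgeR adjusted p = 0.23) and nccrp1 at 1.07 (edgeR adjusted p = 0.22). emb, gpr141, rnf24, sqor, tk, gys1, ptges, plek, batf, egr3 and cd79a also lost their calls there. The fold itself did not shrink for cd79a, gys1 and plek. Their log2 fold changes were 3.18, 2.64 and 1.73 in members without epx, against 2.04, 2.29 and 1.502 over all members. They missed the threshold on edgeR adjusted p, at 0.064, 0.0899 and 0.078. egr3 was at 1.34 in members without epx and 1.49 over all members. ptges lost its call in members with epx too, at 2.099, and cd79a could not be tested in them. rarg kept its call in members without epx, at 3.08 (edgeR adjusted p = 0.017). Macrophage genes stayed lower in members without epx, with stab1 at -5.54, mafb at -4.25, ctsd at -3.97, lgmn at -2.81, slc40a1 at -3.23, axl at -2.90 and marco at -3.16, all called, while cd74 at -0.80 and grn at -0.069 were not. Because csf1r split the classes, the lower values of macrophage genes in members without epx are not independent of the rule. At least 2 of 16 macrophage and dendritic markers had a UMI in 93.5% of members without epx, which were deeper. This was 79.3% in members with epx and 97.1% in csf1r-positive barcodes. The difference between members with and without epx was itself not tested.

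The summed macrophage and dendritic markers ran from 3192 through 12555 to 34315 CPM in granulocytes and from 15973 through 28810 to 47223 CPM in csf1r-positive barcodes. Of 16 matched markers, 15 were detected in granulocytes. The epithelial markers ran from 47.6 through 579 to 12296 CPM in granulocytes and from 193 through 733 to 10008 CPM in csf1r-positive barcodes, with 9 of 11 and 10 of 11 detected. None of the 6 epithelial markers tested was called. T and NK markers had 0 of 12 higher and 4 lower, where 14.8% of all genes were lower. Of the 4, sh2d1a and cd2 lost their calls without Neolamprologus brichardi, and cd2 also without any of 6 other libraries. The rule asked for 0 UMIs of lck in granulocytes but not in csf1r-positive barcodes. Of 7 B and plasma markers tested, 1 was higher and 2 were lower, with a list median of -0.30. Over all genes 5.23% were higher and 14.8% lower. The higher one was cd79a at 2.04, but in 8 of 15 libraries, and the lower ones were prdm1 at -2.60 and syk at -1.15. The part of these other cell types in the result was not tested.

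**Figure D4:**
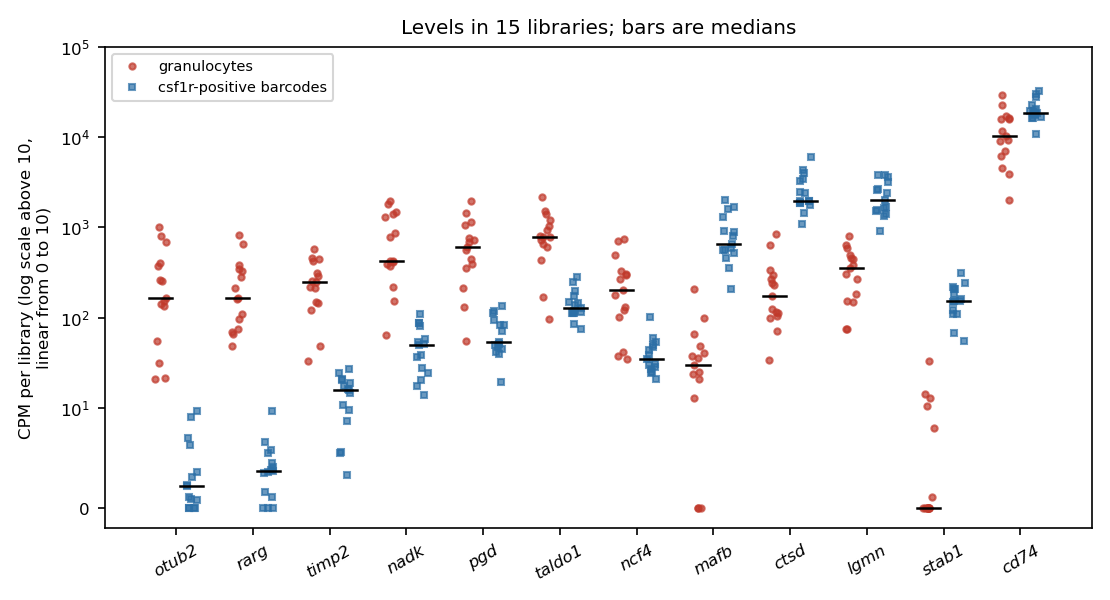
Levels of 12 genes (y axis, CPM per library, log scale above 10) in granulocytes (circles, left) and csf1r-positive barcodes (squares, right) of 15 libraries; black bars are medians. otub2, rarg and timp2 do not overlap between the classes, and neither do mafb, ctsd, lgmn and stab1 in the other direction.

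The other lists varied in how many genes were called. Over all 7387 genes, 5.23% were higher and 14.8% lower, and lists with 1 or 0 calls are not read as standing out from those shares. Of 15 cytokine receptor and signalling genes tested 0 were higher and 1, the kinase gene syk, was lower at -1.15. That call was lost with RLE size factors, at -0.88, without Neolamprologus brichardi, at -0.97, and without Triglachromis otostigma, at -0.98. Of 24 lineage factors, 1 was higher and 7 were lower. batf, a partner of Jun factors, was the higher one (1.29, SE 0.31). Beside mafb, the lower ones were gata3 (-2.59, 2 UMIs in granulocytes), bhlhe41 (-2.46), cebpa (-1.47), runx3 (-1.45), bhlhe40 (-1.36) and id2 (-1.28). gata3 lost its call without Limnotilapia dardennii, Neolamprologus brichardi or Shuja horei and with RLE size factors. spi1, the myeloid master factor, was not called at 0.49. Of 22 cytoskeleton and migration genes 1 was higher, plek at 1.502, and 1 lower, capg at -1.44. The chemokine receptor gene cxcr4 was not called, at -0.87, while the integrin gene itga4 was lower at -1.82. Of 11 genes on the inflammatory mediator list 2 were higher, il34 at 1.96 and plek. The plek call is the same one already counted under cytoskeleton and migration, so il34 is the only further gene. None of 6 interferon response, 14 cell cycle and 5 survival genes was called, and of 15 stress genes egr3 was higher (1.49) and gadd45b lower (-1.10). The gadd45b call was lost with RLE size factors, at -0.81, and without Bathybates ferox, Julidochromis ornatus, Neolamprologus brichardi, Petrochromis orthognathus, Triglachromis otostigma or Xenotilapia spiloptera, at -0.995 to -0.82.

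**Figure D5:**
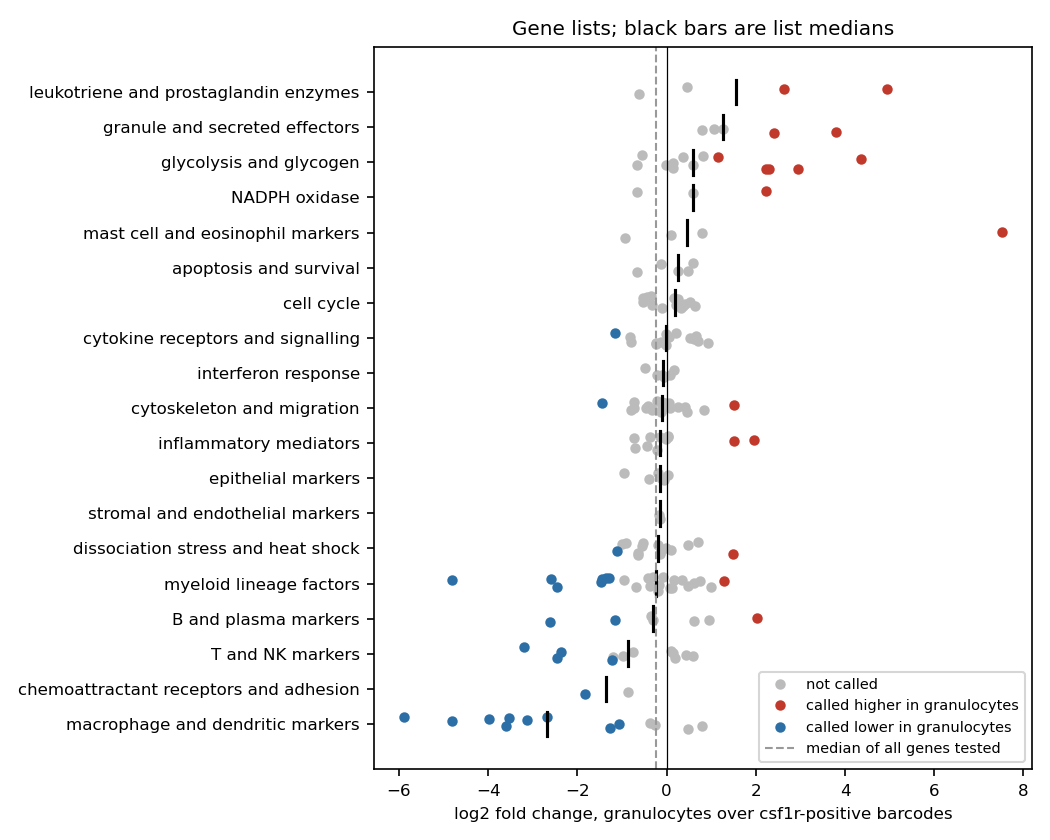
log2 fold change, granulocytes over csf1r-positive barcodes (x axis), of each tested gene in 19 lists; red points are called higher, blue points called lower and grey points not called, black bars are list medians and the dashed line is the median of all 7387 genes. The macrophage and dendritic list has the lowest median, -2.68.

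Against lck-positive barcodes the same fit called 2093 of 7387 genes, or 28.3%, with 973 (13.2%) higher and 1120 (15.2%) lower in granulocytes. RLE size factors gave 1106 higher and 879 lower, and the median of all genes was -0.21 with TMM and -0.053 with RLE. Groups did not overlap for 125 genes, or 1.69%. This comparison and the one with csf1r-positive barcodes share the granulocyte sums. epx was again first, at 8.95 (SE 0.69, edgeR adjusted p = 6.14e-13). mmp13, a collagen-cutting protease, followed with a median of 224 CPM in granulocytes and 0 CPM in lck-positive barcodes (8.04, SE 0.81). asb2 had a median of 168 CPM in granulocytes and 0.801 CPM in lck-positive barcodes, with no overlap (7.26, SE 0.48). nadk, ncf4 and alox5ap were at 5.80, 5.63 and 5.93. spi1 had medians of 585 CPM in granulocytes and 13.1 CPM in lck-positive barcodes, with no overlap (5.02, SE 0.31, edgeR adjusted p = 2.19e-15). The chemokine gene listed as il-8, a neutrophil attractant in mammals, had a median of 37.3 CPM in granulocytes and 0.736 CPM in lck-positive barcodes (5.18, SE 0.42).

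Of 12 T and NK markers, 11 were lower and 0 higher, with a list median of -4.50. Over all genes tested against lck-positive barcodes, 13.2% were higher and 15.2% lower. Because lck split the classes, the values of genes that accompany it in T cells are not independent of the rule. il7r, a survival receptor of T cells, had medians of 2.67 CPM in granulocytes and 304 CPM in lck-positive barcodes (-5.74, SE 0.45). cd3e, of the T cell receptor complex, had a median of 0 CPM in granulocytes and 184 CPM in lck-positive barcodes, with no overlap (-5.33, SE 0.51). Of 14 cell cycle genes 0 were higher and 9 were lower, among them pcna, the replication clamp, at -2.02. Of 13 macrophage and dendritic markers 11 were higher, such as marco at 4.36, irf8 at 3.55 and cd74 at 2.12. Of 13 sugar and glycogen genes 7 were higher, including pgd at 3.87, pfkfb3 at 3.51 and hk1, the first enzyme of glycolysis, at 1.45. Of 5 granule and secreted genes 4 were higher and of 4 lipid mediator enzymes 3 were higher.

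Among the granulocytes themselves, measured levels differed widely between libraries. Over 15 libraries and 610 genes of at least 100 CPM, the median SD of log2(CPM + 10) was 0.775. This spread includes counting error, since the smallest granulocyte sum held 30250 UMIs, and its part was not tested. The 10 named genes with the largest SD included fabp2, apoa4a, rbp2 and epcam, which are genes of absorptive or other epithelial cells, and mmp13. Their SDs in granulocytes were 2.43, 2.93, 2.75, 2.67 and 2.43. The same genes also varied in csf1r-positive barcodes, with SDs of 1.81, 1.71, 2.02, 1.22 and 1.72. A single library held 49.6% of the granulocyte UMIs of apoa4a and 67.6% of those of rbp2. apoa4a, a lipid carrier gene, ran from 0 through 90.1 CPM to 6795 CPM in Limnotilapia dardennii, where csf1r-positive barcodes had 990 CPM. rbp2, a retinol carrier, reached 7521 CPM in Oreochromis niloticus, where csf1r-positive barcodes had 1307 CPM. The part of epithelial RNA or mixed barcodes in this spread was not tested. mmp13 had an SD of 2.43 and ran from 0 through 224 to 1156 CPM. Of the rule genes, mmp9 varied most, with an SD of 1.87, and ncf1 least, with an SD of 0.74.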

How the data were processed

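Per the labels, libraries were made with 10x Chromium 3' v3.1 chemistry, and per the file headers the authors ran Cell Ranger 5.0.0. What the authors deposited are unnormalized UMI counts for each gene and barcode. The deposited barcode and feature lists hold names only. The genome build and annotation are not given in the sources used here. All libraries share 42622 features, of which 12166 have a name other than a LOC identifier, and divergence from the reference can lower a species' counts.

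From these counts, barcodes with at least 500 UMIs and 250 genes were kept and summed per library and class. The members and lists were chosen with earlier results of these data known. Tests used edgeR 4.0.16 (TMM, filterByExpr, library as a block, Benjamini-Hochberg) on sums of at least 10 barcodes and 10000 UMIs, from 30250 to 917124 UMIs in granulocytes and from 330631 to 3511553 in csf1r-positive barcodes. DESeq2 1.42.0 was an alternative. The script was tested on simulated data. Species are the units, each 1 library. Granulocyte, csf1r-positive and lck-positive sums were fitted together, with the library as a block. The edgeR p-values set a class difference against the residual spread pooled over these classes, counting error included. That spread is not the spread of a single class difference between libraries.

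Levels were planned for libraries with at least 30 granulocytes, which left 2, so those with at least 10 are described. The minimum of 3 epithelial markers was chosen after the data were seen. Named genes were the rule genes, list members (at most 12 a list), the 15 highest and 15 lowest named genes of 1 sign in at least 80% of libraries, and the 10 of largest SD. hvcn1 and the genes of the epx-rich Xenotilapia spiloptera barcodes fall outside that rule. Relations used 100000 permutations, 2-sided. Tools were R 4.3.3, Python 3.11.15, numpy 2.4.6, scipy 1.17.1 and pandas 2.3.3. Intervals have a 95% level, and a count of 0 allows 3 counts.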

Additional observations from a re-analysis of the deposited data

Results flagged for a closer look

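The 10 libraries with too few granulocytes for the fit carried epx at 1142 CPM in their 39 pooled granulocytes and 0.723 CPM in their csf1r-positive barcodes, which is a signal in data that the tests did not use. In Xenotilapia spiloptera, 258 barcodes outside the rule had 3 or more epx UMIs, of which 238 held none of the rule names and 230 had at least 3 epithelial markers. Their ptprc level, a gene of all leukocytes, was 9.86 CPM, against 646 CPM in the granulocytes of that library. The epx level of all epithelial barcodes was 958 CPM in that library. What sets these barcodes apart was not tested.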

How the results depend on the processing

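Against csf1r-positive barcodes 1481 genes were called. The count was 2573 with no filter on low counts, 758 with at least 3 names (2 libraries), 1 with at least 30 barcodes in each class (2 libraries) and, chosen after the data were seen, 388 for members without epx (5 libraries) and 1461 for members with epx (8 libraries). Against lck-positive barcodes 2093 became 3882 with no filter, 1046 with at least 3 names and 69 with at least 30 barcodes. Without the library as a replicate block the counts were 1286 and 1980. Leaving out each library in turn gave 1292 to 1507 and 2016 to 2224. The median share of 0.294% was 0.0531% with at least 3 names, 0.0904% with csf3r and mmp9 both, 0.123% for members with epx and 0.118% after thinning. The median SD of levels, 0.528 over the 2 libraries planned, was 0.564 with a pseudocount of 1 and 0.775 over 15 libraries. The setting of at least 60 granulocytes left 1 library and gave no SD. Pearson's r of the 3 relations recomputed over all 25 libraries kept its sign in 6 other settings. Directions that turned against csf1r-positive barcodes were pfkfb3 at -0.011, srgn at -0.14, spi1 at -0.043, pgk1 at -0.025, pkm at -0.16, eno1 at -0.11 and gapdh at -0.10 in members without epx, and mmp13 at -2.45 with at least 3 names. gapdh was also -0.86 with at least 3 names, -1.32 with csf3r and mmp9 both, -0.69 in members with epx, -0.0037 with no filter and between -0.022 and 0.35 with 1 library omitted. Against lck-positive barcodes members without epx turned timp2 to -0.022, socs3 to -0.19, bcl2l1 to -0.11 and mcm3 to 0.094. With at least 3 names, lgmn turned to -1.09, slc40a1 to -2.17, zbtb46 to -1.12, mcm7 to 0.15, mcm3 to 0.20 and mcm5 to 0.72. With csf3r and mmp9 both, lgmn was -0.84, slc40a1 -0.28 and zbtb46 -0.23. With at least 30 barcodes lgmn was -0.54 and slc40a1 -0.42, and in members with epx lgmn was -0.36. The cause was not tested, beyond the fewer libraries named. Levels rest on 381 granulocytes in 15 libraries, and depth limits genes of low level.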
